A study of Rattus norvegicus with 8 samples.

Results

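The circadian clock genes described here are Arntl (also called Bmal1), Clock, Npas2, Per1, Per2, Per3, Cry1, Cry2, Dbp and Nr1d2. They were taken by name: every non-control probe of the array whose gene name is one of these 10 was used, which gave 13 of 41012 probes and 10 of 16521 named genes. Of the 13 probes, 9 passed the filter on dim probes, 1 for each of 9 genes, and neither probe of Npas2 passed. The cells were BRL-3A, an established line grown from rat liver. RNA came from 4 samples that received an siRNA directed at lnc19959.2, a long noncoding RNA, and from 4 samples whose transfection is labelled NC. Both groups were transfected with lipofectamine and harvested at 48 h, and each RNA was hybridised alone to an Agilent whole rat genome array. The comparison asked how transcripts of these liver-derived cells differed after the siRNA against lnc19959.2, which the series title links to triglyceride metabolism. No probe carried the name lnc19959.2, so its knockdown was not checked on these arrays.

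The circadian clock is a loop of transcription and repression that runs in nearly every mammalian cell. The proteins of Arntl and of either Clock or Npas2 pair and activate genes that carry E-box motifs, among them the Per and Cry genes, whose proteins return to the nucleus and repress the pair. A second loop sets the repressors Nr1d1 and Nr1d2 against the ROR activators at Arntl, and Dbp, an activator that binds D-box motifs, carries the rhythm to output genes. In the liver the clock times much of lipid, bile acid and glucose metabolism.

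The 75th percentile of spot intensity was 289 to 323 on the siRNA arrays and 246 to 261 on the NC arrays, and 55.4% to 59.1% of spots on the siRNA arrays and 57.3% to 64.1% on the NC arrays lay well above background. Across probes, arrays of the same group correlated at 0.986 to 0.993 and arrays of different groups at 0.946 to 0.962. The siRNA arrays shared 1 slide and scan and the NC arrays a different one, so these technical factors cannot be told apart from the groups. Of 18 hepatocyte markers on the array, 6 were well above background on none of the 8 arrays. Among these 6 were the defining markers Alb, Ttr and Tf. For 8 of the 18 the signal was well above background in every NC array, and for 5 in every siRNA array. Alb, Ttr and Tf thus do not show a hepatocyte identity of the line, while other markers of the list were detected. Each signal below is the processed intensity divided by the array's own 75th percentile, and each log2 difference, siRNA minus NC, is given with its standard error (SE) from limma.

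The upstream 250 bases of 4 of these genes are shown because they hold motifs through which clock factors are known to act. The sequences are from RefSeq on the GRCr8 assembly, which gave an entry for 9 of the 10 genes and none for Cry1. They run 5′ to 3′ towards the transcription start, and capitals mark the E-box, variant E-box, D-box and receptor motif, searched on both strands, so a match on the opposite strand appears as its reverse complement.
Per2 (chr9:99496994-99497243, minus strand): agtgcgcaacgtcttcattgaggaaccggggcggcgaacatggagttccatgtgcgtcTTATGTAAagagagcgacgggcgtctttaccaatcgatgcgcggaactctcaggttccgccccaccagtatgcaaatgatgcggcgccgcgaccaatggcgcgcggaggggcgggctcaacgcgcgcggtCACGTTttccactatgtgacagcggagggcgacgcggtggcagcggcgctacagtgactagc
Cry2 (chr3:98860438-98860687, minus strand): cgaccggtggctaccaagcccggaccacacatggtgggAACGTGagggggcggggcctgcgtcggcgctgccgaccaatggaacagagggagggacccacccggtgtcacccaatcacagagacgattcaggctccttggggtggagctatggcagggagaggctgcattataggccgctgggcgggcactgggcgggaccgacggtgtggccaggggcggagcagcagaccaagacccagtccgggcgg
Arntl (chr1:176766078-176766327, plus strand): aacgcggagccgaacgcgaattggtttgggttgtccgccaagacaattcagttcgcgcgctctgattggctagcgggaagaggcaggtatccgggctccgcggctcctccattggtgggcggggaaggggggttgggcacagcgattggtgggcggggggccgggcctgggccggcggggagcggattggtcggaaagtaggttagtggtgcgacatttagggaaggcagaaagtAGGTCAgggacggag
Nr1d2 (chr15:9954784-9955033, plus strand): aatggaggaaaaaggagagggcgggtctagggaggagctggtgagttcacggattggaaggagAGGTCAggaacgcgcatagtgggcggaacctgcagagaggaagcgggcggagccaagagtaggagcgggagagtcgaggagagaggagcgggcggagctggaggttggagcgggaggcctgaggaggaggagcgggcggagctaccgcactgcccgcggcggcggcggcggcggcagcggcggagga
The letters searched were CACGTG (E-box), CACGTT (a variant E-box), TTATGNAA (D-box), AGGTCA (the core motif of ROR and Nr1d receptors), TGACGTCA (the cAMP response element, CRE) and TGACG (the CRE core, which lies within the CRE). In the Per2 window the variant E-box lies 62 bases and the D-box 192 bases before the start. Cry2 holds the variant E-box 212 bases before its start. The receptor motif lies 15 bases before the Arntl start and 187 bases before the Nr1d2 start. A CRE core lies 164 bases before the Per3 start. Of the 9 genes with an entry, 0 hold the E-box in this window, 2 the variant E-box, 1 the D-box, 2 the receptor motif, 0 the CRE and 1 the CRE core. Over 33469 rat promoter windows of this length, 5.59% hold the E-box, 4.07% the variant E-box, 3.28% the D-box, 14.1% the receptor motif, 1.59% the CRE and 18.2% the CRE core. These matches describe letters and are not evidence of binding.

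Most of the clock genes had lower signals after the siRNA. Arntl, Clock, Per1, Per2, Cry1, Cry2, Dbp and Nr1d2 were lower in siRNA cells than in NC cells, and Per3 was not called. By limma at an adjusted p under 0.05, 8 of the 9 measured clock genes were lower, 0 were higher and 1 was not called. Over all 10861 measured genes, 28.9% were lower, 36.1% were higher and 65% differed in either direction. Of the 24853 probes tested, 31.9% were lower and 29.7% higher. The median log2 difference was -0.68 over the 9 clock genes and 0.04 over all measured genes. Each of the 8 called genes lay below the lower quartile of all genes, which was -0.32. Per2 alone passed 2-fold, a size that 8.78% of all genes reached downwards and 4.2% upwards. In each of the 8 called genes the siRNA arrays did not overlap the NC arrays, as in 62.4% of all measured genes. An array averages the RNA of many cells, so fewer expressing cells and less RNA per cell cannot be told apart. With scaling to spike-in controls, which moved the median of all probes up by 0.53 on the log2 scale, 2 of the 9 clock genes were called lower, Arntl (-0.39) and Per2 (-0.74), and with normexp background correction on all spots 1 was, Per2. All samples were taken at 1 time, so a shift in the phase of the clock and a change in its mean level cannot be told apart either.

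**Figure D1:**
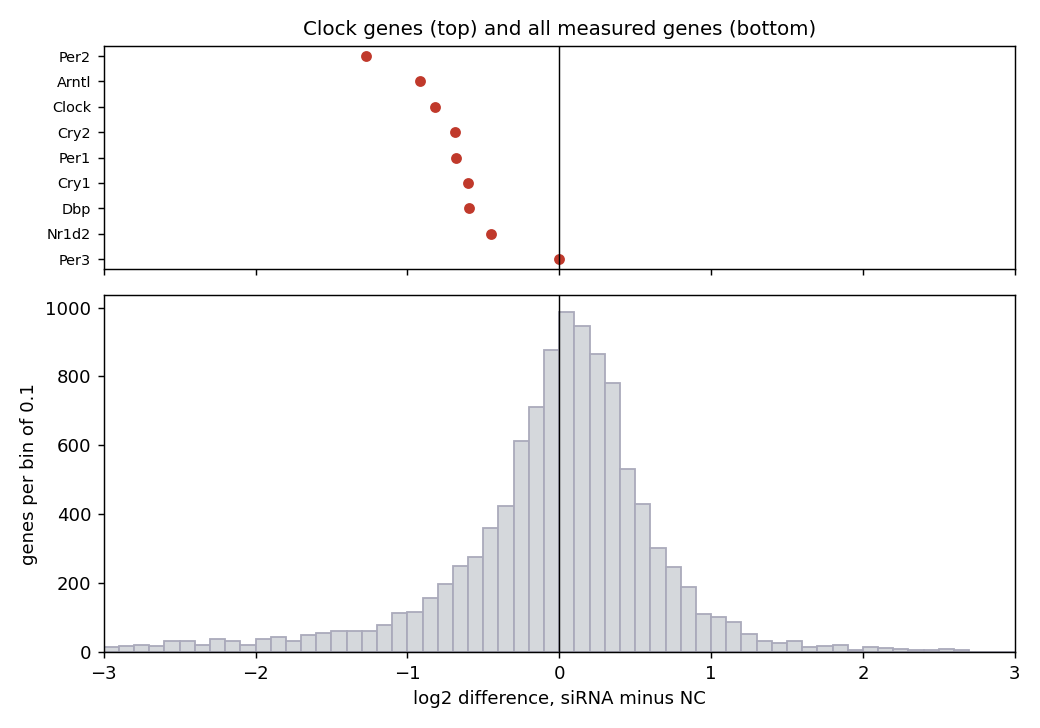
Log2 difference, siRNA minus NC, of the 9 measured clock genes (upper panel, 1 point per gene) and of all measured genes (lower panel, genes per bin of 0.1; the 178 genes beyond the axis are not drawn). The clock genes run from -1.27 for Per2 to 0.00 for Per3, and the bulk of all genes is centred near 0.

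Arntl encodes the activator that pairs with the proteins of Clock and Npas2. Its probe, on rn4 chromosome 1 from 171161969 to 171162028, gave 6.91, 6.04, 6.51 and 5.41 times the 75th percentile on the siRNA arrays and 12.1, 12.2, 12.03 and 10.5 times on the NC arrays. Every siRNA array lay well under every NC array, and the lowest NC value was that of replicate 4. The mean log2 signal was 2.63 ± 0.15 in siRNA cells and 3.55 ± 0.11 in NC cells (SD, n = 4 each), a 1.89-fold lower level in siRNA cells (log2 difference -0.92 ± 0.09 SE, adjusted p = 9.22e-05 by limma). The promoter of Arntl printed above carries the motif at which Nr1d and ROR proteins act.

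Clock encodes the histone acetyltransferase that pairs with Arntl's protein. Its probe (chromosome 14, 34247245 to 34248295, a span longer than the probe) was dim, at 0.0483, 0.0683, 0.0651 and 0.0804 on the siRNA arrays and 0.102, 0.114, 0.127 and 0.112 on the NC arrays. It was well above background on 3 of 4 siRNA arrays and on 4 of 4 NC arrays, and the groups did not overlap. Clock was 1.76-fold lower in siRNA cells (mean log2 signal -3.96 ± 0.31 and -3.14 ± 0.13 in NC cells, SD, n = 4 each; log2 difference -0.82 ± 0.15 SE, adjusted p = 0.00218 by limma). The difference was called with every array left out in turn and ranged from -0.92 to -0.68. With normexp background correction that leaves out spots dimmer than their background it was -0.27, and with spike-in scaling -0.29 (adjusted p = 0.115).

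Npas2, which can stand in for Clock as partner, has 2 probes that share no run longer than 6 bases and gave opposite directions. They are shown because no single Npas2 level can be read from them, with the shared run in capitals.
A_44_P405793: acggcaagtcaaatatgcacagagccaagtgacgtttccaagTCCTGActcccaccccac
A_44_P945456: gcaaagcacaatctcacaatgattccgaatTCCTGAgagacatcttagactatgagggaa
The first (chromosome 9, 38418402 to 38430968) gave 0.0484, 0.0650, 0.0708 and 0.0452 on the siRNA arrays and 0.0269, 0.0390, 0.0334 and 0.0409 on the NC arrays. It was well above background on 2 of 4 siRNA arrays and 0 of 4 NC arrays. With each NC array set to its lowest signal well above background, the siRNA mean was 1.18-fold higher. This is not a firm bound, since not all siRNA arrays were themselves well above background. The second (38433884 to 38433943) gave 0.0125, 0.00917, 0.0108 and 0.0109 on the siRNA arrays and 0.0256, 0.0300, 0.0441 and 0.0223 on the NC arrays, well above background on none of the 8. Both probes separated the groups, in opposite directions and near or under the limit of detection. Npas2 was therefore not counted among the measured genes.

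**Figure D2:**
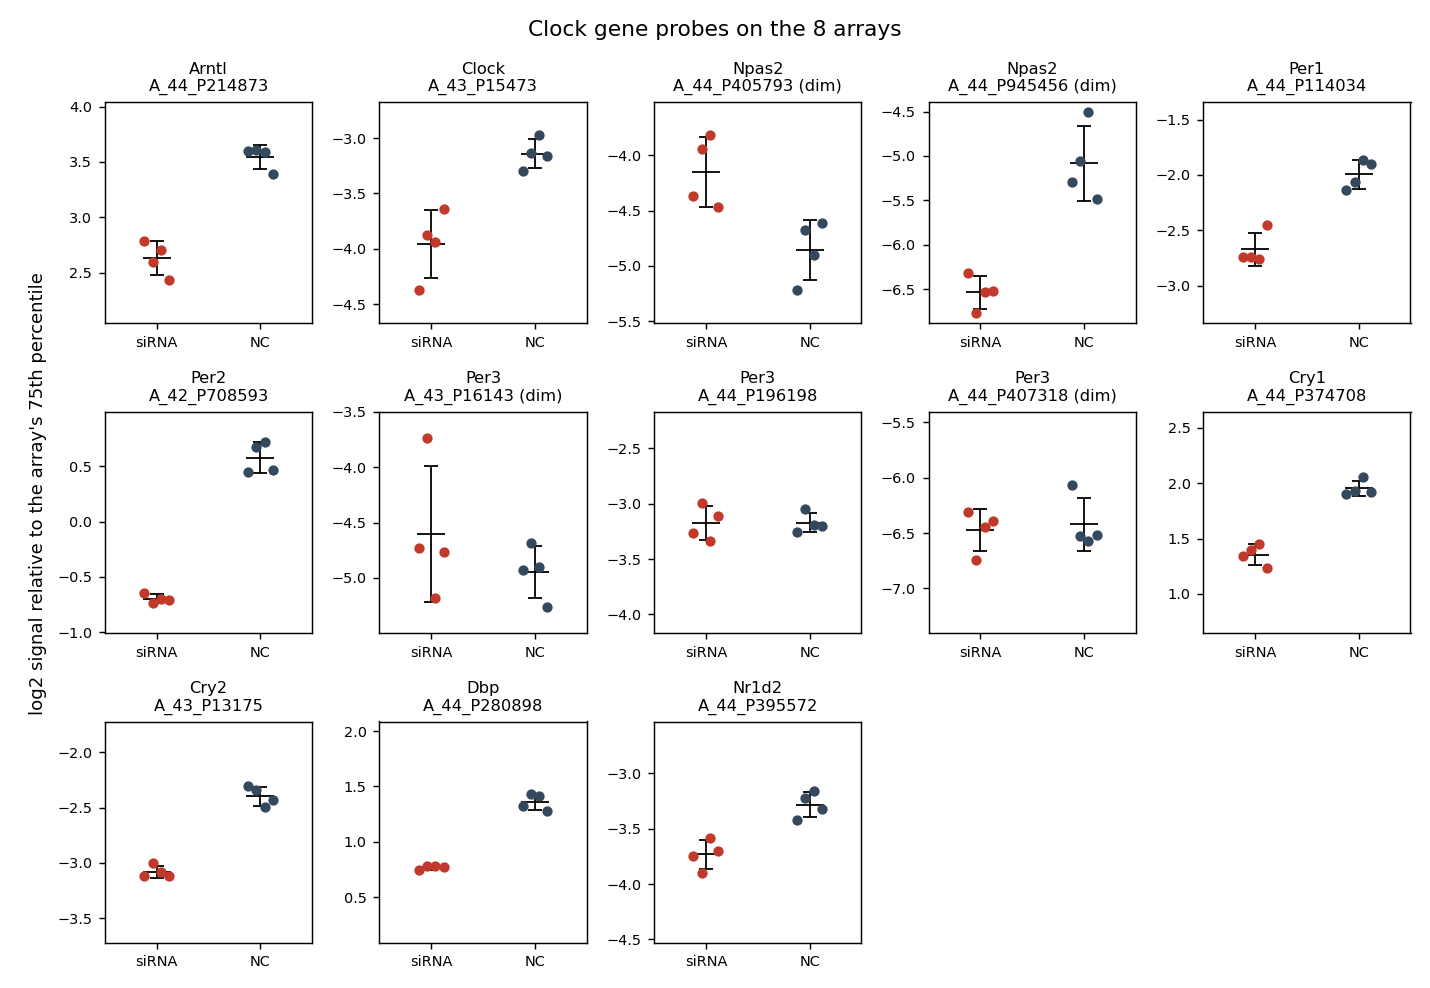
Log2 signal relative to the array's 75th percentile for each of the 13 probes of the clock genes, 1 panel per probe, with the siRNA arrays left of the NC arrays, 1 point per array and the group mean ± SD (n = 4). Panels marked dim did not pass the filter. The vertical axes differ in their range of levels. The 2 groups are separate in the panels of Arntl, Clock, Per1, Per2, Cry1, Cry2, Dbp and Nr1d2 and overlap in those of Per3. They are also separate in the 2 dim panels of Npas2, in opposite directions.

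The Period genes encode the core repressors that bind Cryptochrome proteins. Per2, a Period gene needed for lasting rhythms in the mouse, showed the largest difference of the 9 measured clock genes. Its probe (chromosome 9, 90645610 to 90645669) has the sequence shown here because this gene carries the largest difference.
Per2 probe: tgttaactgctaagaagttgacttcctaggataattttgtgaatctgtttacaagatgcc
Per2 gave 0.640, 0.601, 0.616 and 0.611 on the siRNA arrays and 1.36, 1.59, 1.65 and 1.38 on the NC arrays. The siRNA arrays lay close together, and the lowest NC array was above each of them. The mean log2 signal was -0.70 ± 0.04 in siRNA cells and 0.58 ± 0.14 in NC cells (SD, n = 4 each), 2.42-fold lower in siRNA cells (log2 difference -1.27 ± 0.07 SE, adjusted p = 7.98e-06 by limma). Without any scaling the processed intensity was 181 to 197 on the siRNA arrays and 357 to 408 on the NC arrays. Per2 was called lower in each of the 21 other settings tried.

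Per1, which light and cAMP signals induce early in the mouse, was lower by a smaller amount. Its probe (chromosome 10, 55867840 to 55868424) gave 0.149, 0.150, 0.148 and 0.182 on the siRNA arrays and 0.227, 0.239, 0.275 and 0.267 on the NC arrays. The siRNA replicate 4 array was the highest of its group and still under the lowest NC array. The level was 1.60-fold lower in siRNA cells (log2 difference -0.68 ± 0.09 SE, adjusted p = 0.00048 by limma; n = 4 arrays each). The unscaled intensities did not overlap either, at 43.2 to 58.9 on the siRNA arrays and 59.3 to 69.4 on the NC arrays. With spike-in scaling Per1 stood at -0.15 and was not called (adjusted p = 0.177 by limma).

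Per3, the paralog that the core loop depends on least, has 3 probes, of which 1 was measurable. The first 2 of the 3 share a run of 22 bases, shown in capitals, and the third shares at most 7 bases with either.
A_44_P196198: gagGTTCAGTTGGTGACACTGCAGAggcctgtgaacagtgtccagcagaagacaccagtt
A_43_P16143: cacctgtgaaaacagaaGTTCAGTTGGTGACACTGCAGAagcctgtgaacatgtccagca
A_44_P407318: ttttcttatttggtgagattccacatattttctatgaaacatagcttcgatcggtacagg
The measurable probe, A_44_P196198 (chromosome 5, 168152851 to 168152910), gave 0.104, 0.125, 0.0987 and 0.116 on the siRNA arrays and 0.105, 0.121, 0.110 and 0.109 on the NC arrays. The groups overlapped fully, and the log2 difference of 0.00 ± 0.09 (SE, adjusted p = 0.966 by limma) had a 95% interval from -0.21 to 0.20. The probe A_43_P16143 (listed at 168152693 to 168152701, a span shorter than the probe) was well above background on 1 siRNA array and 0 NC arrays, and A_44_P407318 (168184060 to 168184119) on none of the 8. That interval is relative to the 75th percentile: Per3 was called higher in siRNA cells after scaling by the median (0.30) or the spike-in controls (0.53) and after quantile (0.29) or cyclic loess normalization (0.27).

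The Cryptochrome genes encode the repressors that act on the Arntl and Clock pair itself. Cry1, the stronger repressor of the pair in the mouse, gave 2.53, 2.63, 2.74 and 2.36 on the siRNA arrays and 3.75, 3.81, 4.16 and 3.80 on the NC arrays (probe on chromosome 7, 20708985 to 20709044). It was 1.51-fold lower in siRNA cells (log2 difference -0.60 ± 0.06 SE, adjusted p = 0.000128 by limma; n = 4 arrays each), with no overlap. Cry2 gave 0.115, 0.125, 0.118 and 0.115 on the siRNA arrays and 0.202, 0.197, 0.177 and 0.185 on the NC arrays (chromosome 3, 76802827 to 76802886). It was 1.61-fold lower in siRNA cells (log2 difference -0.68 ± 0.06 SE, adjusted p = 4.89e-05 by limma). Both Cryptochrome genes were thus lower by similar amounts under the planned scaling, with tight arrays in each group. With spike-in scaling neither was called by limma (Cry1 -0.07, adjusted p = 0.341, and Cry2 -0.15, adjusted p = 0.126).

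Dbp encodes a PAR bZIP activator of output genes and is itself driven through E-boxes. It gave 1.67, 1.72, 1.72 and 1.71 on the siRNA arrays and 2.51, 2.69, 2.66 and 2.42 on the NC arrays (chromosome 1, 96178020 to 96178079). The siRNA arrays lay within a few percent of each other, and Dbp was 1.51-fold lower in siRNA cells (mean log2 signal 0.77 ± 0.02 in siRNA cells and 1.36 ± 0.07 in NC cells, SD, n = 4 each; log2 difference -0.59 ± 0.05 SE, adjusted p = 4.41e-05 by limma). With spike-in scaling Dbp stood at -0.06 and was not called (adjusted p = 0.41 by limma).

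Nr1d2 encodes one of the heme-binding nuclear receptors that repress Arntl. It gave 0.0746, 0.0668, 0.0835 and 0.0771 on the siRNA arrays and 0.0933, 0.107, 0.112 and 0.0997 on the NC arrays, from a probe with no position in the array design. It was 1.37-fold lower in siRNA cells (log2 difference -0.45 ± 0.09 SE, adjusted p = 0.00256 by limma; n = 4 arrays each), the smallest called difference among the clock genes. This call depended on the scaling. Nr1d2 stood at -0.14 with median scaling, -0.10 with quantile normalization, -0.12 with cyclic loess and 0.080 with spike-in scaling, and was not called with these 4, nor without any scaling (-0.21, adjusted p = 0.0541). Its unscaled intensities overlapped, at 20.5 to 24.9 on the siRNA arrays and 24.4 to 27.5 on the NC arrays, whereas those of the other 7 called clock genes did not overlap.

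**Figure D3:**
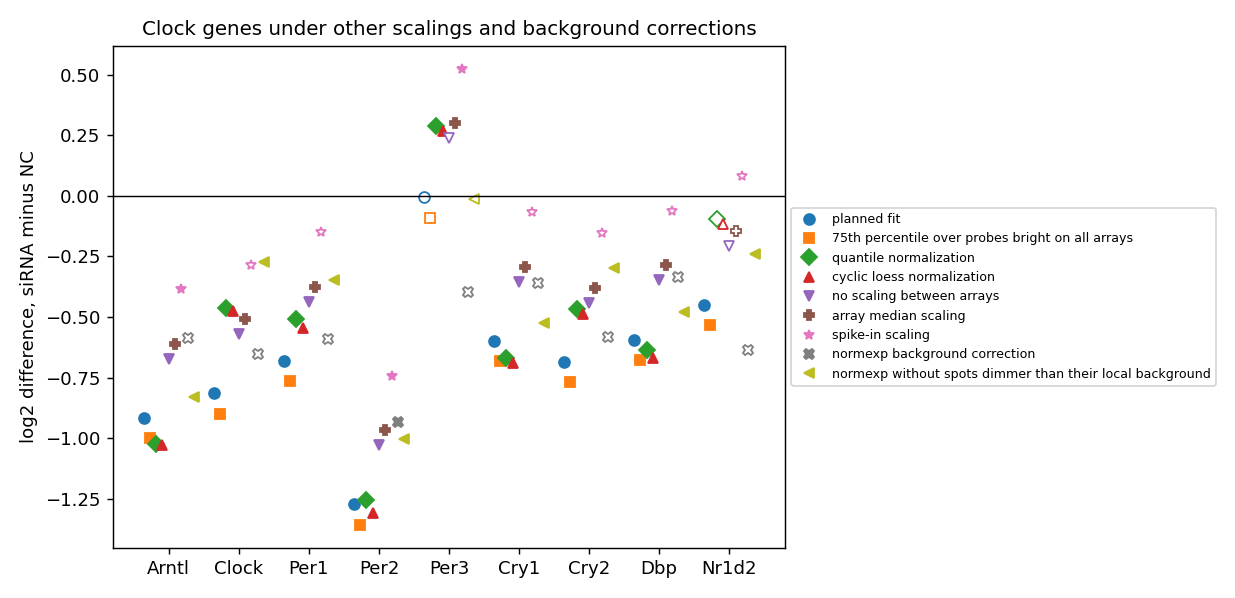
Log2 difference, siRNA minus NC, on the vertical axis for each of the 9 measured clock genes under the planned fit and 8 other scalings and background corrections, 1 marker shape per setting. Filled markers have an adjusted p under 0.05 and open markers do not. Per2 has the lowest marker of the 9 genes in each setting drawn, Per3 stands above 0 in 5 of the settings, and Nr1d2 stands above 0 with spike-in scaling (0.080).

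A difference between 2 genes of the same array does not change where scaling subtracts the same amount from every probe of that array. Quantile and cyclic loess normalization do not work this way and can change it. With quantile normalization Cry1 stood at -0.67 and Cry2 at -0.47, and Arntl at -1.02 and Clock at -0.46. In all, 6 such pairs, chosen after their values were seen, were compared by an exact two-sided permutation test over the 70 ways to split the 8 arrays, whose smallest possible p is 0.0286, with Benjamini-Hochberg adjustment over the 6 pairs. The log2 signal of Per2 minus that of Per1 was 1.98 ± 0.16 on the siRNA arrays and 2.57 ± 0.15 on the NC arrays (SD, n = 4 each), a difference of -0.59 (exact p = 0.0286, adjusted 0.0429). Per2 minus Per3 differed by -1.27 and Per1 minus Per3 by -0.68 (exact p = 0.0286, adjusted 0.0429, each). By size of log2 difference the 3 Period genes ran in the order Per2, Per1, Per3. All 6 pairs were chosen from these same values, so their p-values are not independent support, for that order or for any other pair. Cry2 minus Cry1 differed by -0.09 (exact p = 0.371, adjusted 0.446) and Arntl minus Clock by -0.10 (exact p = 0.714, adjusted 0.714), and neither was called. Nr1d1, the paralog of Nr1d2, lay further down than Nr1d2: their difference was 1.03 ± 0.13 on the siRNA arrays and 3.13 ± 0.03 on the NC arrays (SD, n = 4 each), which is -2.10 (exact p = 0.0286, adjusted 0.0429).

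Other genes of the clock pathway were listed in 3 groups by role, and 37 of the 43 had a measured probe. Of the 37, 13 were higher, 16 lower and 8 not called, with a median log2 difference of -0.03. Over all measured genes 36.1% were higher, 28.9% lower and 65% called in either direction, with a median of 0.04. Of the 10 measured loop and output factors, 2 were higher, 7 lower and 1 not called, with a median of -0.93. Of the 14 measured kinases, phosphatases and ubiquitin pathway genes, 5 were higher, 6 lower and 3 not called (median -0.10). Of the 13 measured coregulators, 6 were higher, 3 lower and 4 not called (median 0.09). Kat2b, Fbxl21, Ciart and Hlf were among those matched to no probe, and Ppargc1a was well above background on no array of either group.

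**Figure D4:**
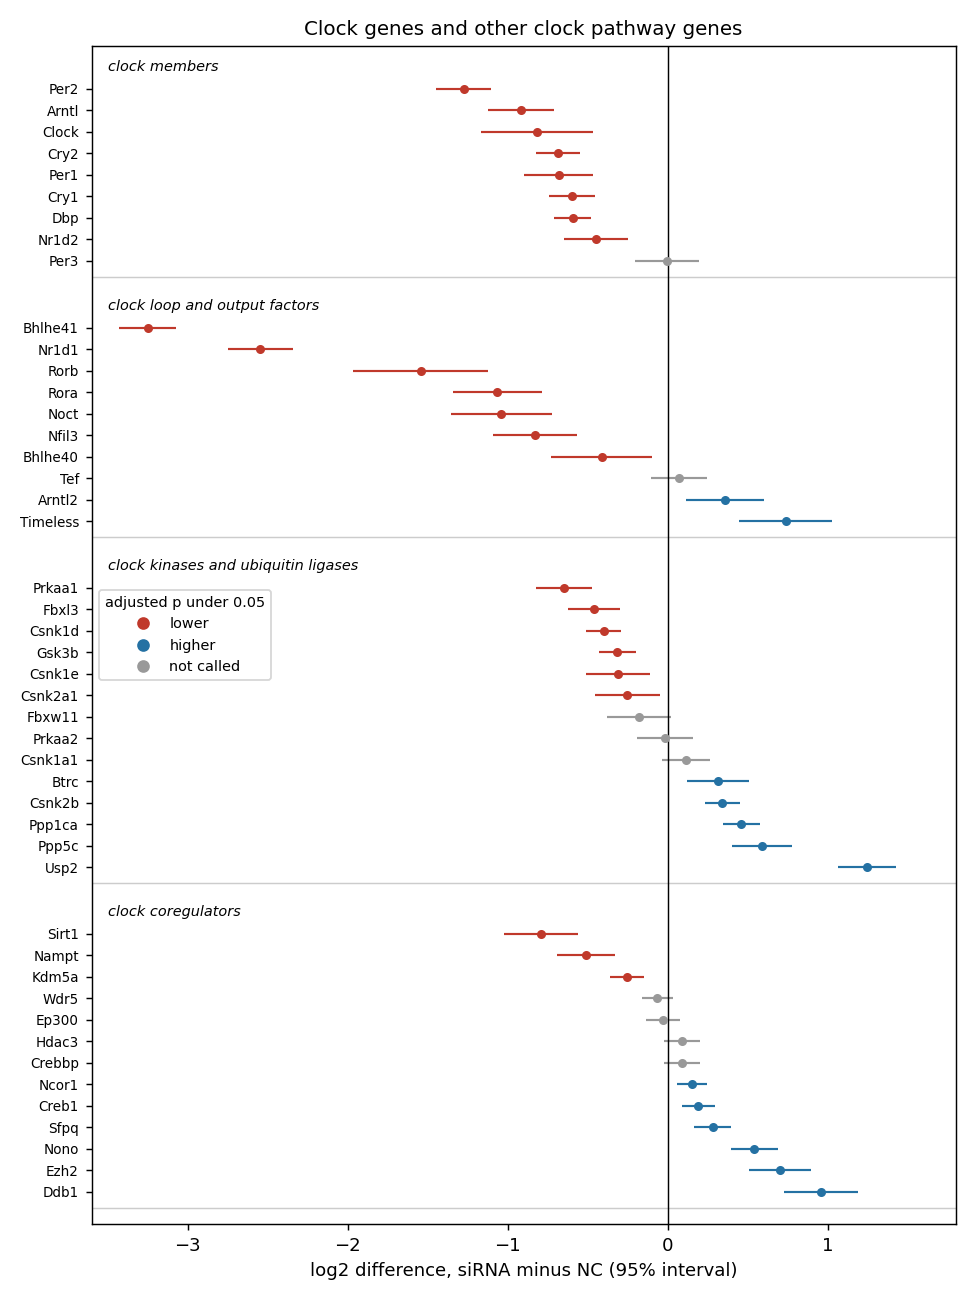
Log2 difference, siRNA minus NC, with its 95% interval for the 9 measured clock genes and the 37 other measured genes of the clock pathway, grouped by role and coloured by call at an adjusted p under 0.05. Bhlhe41 and Nr1d1 lie furthest to the left, and the kinases and coregulators lie on both sides of 0. Rorb is drawn at its fitted value, although it was above background on no siRNA array.

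Among the loop factors, Bhlhe41 and Nr1d1 differed by more than any of the 9 measured clock genes. Bhlhe41 (DEC2), a repressor that competes for E-boxes, gave 0.121, 0.112, 0.107 and 0.118 on the siRNA arrays and 1.08, 1.23, 1.05 and 0.995 on the NC arrays. It was 9.52-fold lower in siRNA cells (log2 difference -3.25 ± 0.08 SE, adjusted p = 1.47e-07 by limma). Nr1d1 (REV-ERB alpha), the main repressor of Arntl, gave 0.157, 0.140, 0.150 and 0.170 on the siRNA arrays and 0.792, 0.963, 0.978 and 0.879 on the NC arrays. It was 5.84-fold lower in siRNA cells (log2 difference -2.55 ± 0.09 SE, adjusted p = 6.92e-07 by limma). For both genes the 2 groups of arrays were far apart. Rora, the activator that competes with Nr1d1 at Arntl, was lower too (-1.06 ± 0.12 SE, adjusted p = 0.000179), as was Nfil3, the repressor that opposes Dbp at D-boxes (-0.83 ± 0.11 SE, adjusted p = 0.000462). Rorb was well above background on 0 of 4 siRNA arrays and on 4 of 4 NC arrays, so it passed the filter through the NC arrays alone. Under the planned scaling its level in siRNA cells was lower by 1.78-fold or more. Its limma call, counted among the 7 lower loop factors, rests on siRNA signals under the limit of detection, so no p-value is given. Over the other settings its fitted log2 difference ran from -1.65 to -0.39.

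Bhlhe40 (DEC1), the paralog of Bhlhe41, was lower by a smaller amount and with overlapping groups (-0.41 ± 0.14 SE, adjusted p = 0.0308 by limma). Its call was lost without siRNA replicate 2 (adjusted p = 0.0588) or 4 (0.052) and without NC replicate 2 (0.0802) or 3 (0.0774). It was also lost with median scaling (-0.11, adjusted p = 0.477), spike-in scaling (0.12, adjusted p = 0.444), no scaling (-0.17, adjusted p = 0.216) and no filter on dim probes (-0.41, adjusted p = 0.0509). Tef, the PAR bZIP relative of Dbp, was not called (0.07 ± 0.08 SE, adjusted p = 0.444). It was called higher with median (0.38), spike-in (0.60) and quantile scaling (0.24), with cyclic loess (0.19) and without scaling (0.31). Its 4 siRNA arrays, at 0.209 to 0.233, overlapped the NC arrays, at 0.190 to 0.231, while those of Dbp did not overlap. The higher loop genes, named after their values were seen, were Timeless, which in mammals acts mainly at replication forks (0.74 ± 0.13 SE, adjusted p = 0.00144), and Arntl2, the paralog of Arntl (0.36 ± 0.11 SE, adjusted p = 0.0187, groups overlapping).

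Genes that act on the clock proteins went both ways, as measured genes did over the whole array. Usp2, a deubiquitinase with clock protein substrates and itself a rhythmic transcript in the mouse liver, gave 0.424, 0.439, 0.440 and 0.494 on the siRNA arrays and 0.168, 0.193, 0.188 and 0.208 on the NC arrays. It was 2.37-fold higher in siRNA cells (1.25 ± 0.08 SE, adjusted p = 1.21e-05 by limma), the opposite direction to the 8 called clock genes. Ppp1ca, a protein phosphatase subunit, was higher (0.46 ± 0.05 SE, adjusted p = 0.000152). Csnk1d, a kinase that marks Period proteins for decay, was lower (-0.40 ± 0.05 SE, adjusted p = 0.000216) but was not called with median scaling (-0.09, adjusted p = 0.109) and stood at 0.13 with spike-in scaling. Prkaa1, a subunit of AMP-activated kinase that phosphorylates Cry1 protein in the mouse, was lower as well (-0.65 ± 0.07 SE, adjusted p = 0.000203), a call lost with spike-in scaling (-0.12, adjusted p = 0.227).

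Among the coregulators, Ddb1, an adaptor of ubiquitin ligases, was 1.95-fold higher in siRNA cells (0.96 ± 0.10 SE, adjusted p = 0.000126 by limma). Ezh2, the methyltransferase of Polycomb (0.70 ± 0.08 SE, adjusted p = 0.000221), and Nono, an RNA-binding partner of Period proteins (0.54 ± 0.06 SE, adjusted p = 0.00021), were also higher. Sirt1, the NAD-dependent deacetylase that counters Clock's acetylation, was lower (-0.79 ± 0.10 SE, adjusted p = 0.000316), also a call lost with spike-in scaling (-0.26, adjusted p = 0.0586). The 5 probes of Creb1, an activator of Per1, disagreed: the brightest was called higher (0.19 ± 0.04 SE) and the 2 next in the list lower (-0.31 ± 0.07 and -0.43 ± 0.06 SE), so no direction is given for Creb1 beyond its place in the counts. With normexp on all spots the calls of Nfil3, Rorb, Bhlhe40, Usp2, Ppp1ca, Csnk1d and Sirt1 were lost, with the same signs.

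The 3 measured genes whose signal followed Per2 most closely over the 8 arrays were Ubap1l, Star and Sirt7. Their Pearson correlations with Per2 were 0.9995, 0.999 and 0.999, as a description of arrays that fall into 2 groups. Star, which moves cholesterol into mitochondria, differed by -1.25 ± 0.06 (SE), Ubap1l by -0.98 ± 0.06 and the deacylase Sirt7 by -0.78 ± 0.05. Under the planned scaling each thus shares with Per2 a gap between the groups much wider than the spread within them. Star and Ubap1l were called lower in each of the 21 other settings, and Sirt7 in 20 of them, with a difference from -0.89 to -0.25.

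The summed signals of cell type marker lists differed between the groups as well. The summed signal of the hepatocyte list was 8.84 to 11.3 times the 75th percentile on the siRNA arrays and 4.73 to 5.32 on the NC arrays. Fibroblast and stellate cell markers (14 on the array, Lum and Pdgfra above background nowhere) summed to 542 to 591 on the siRNA arrays and 511 to 537 on the NC arrays. Endothelial markers (8 on the array, Pecam1 and Tie1 above background nowhere) summed to 4.35 to 5.93 on the siRNA arrays and 2.26 to 2.98 on the NC arrays. Cholangiocyte markers (7 on the array, with Cftr and Epcam among those above background nowhere) summed to 4.31 to 4.90 on the siRNA arrays and 2.18 to 2.44 on the NC arrays. Leukocyte markers (9 on the array, Cd79a and Adgre1 above background nowhere) summed to 5.36 to 6.50 on the siRNA arrays and 6.57 to 7.42 on the NC arrays. By limma, 3 of 9 measured hepatocyte markers were higher and 4 lower, and 6 of 11 fibroblast and stellate markers were higher and 1 lower. Of 5 endothelial markers 3 were higher and 2 lower, of 3 cholangiocyte markers 1 was higher and 2 lower, and of 2 leukocyte markers 0 were higher and 1 lower. Over all measured genes 36.1% were higher and 28.9% lower. The hepatocyte and cholangiocyte sums were higher although more of their measured markers were lower than higher. A sum weighs bright markers most and a count weighs all alike, and the single markers behind these sums are not given here. No change of cell type is read from these values. The part of these markers in the differences of the clock genes was not tested.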

How the data were processed

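Scanner files of 8 one-colour arrays were used. The deposited processed intensity came from Agilent Feature Extraction 12.0.3.1 per the file headers (12.0 per the submitters' processing notes), background-subtracted and not scaled between arrays. The authors' deposited series table of log2 values covers 86 probes and 0 probes of these genes, and was not used.

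Control spots and spots marked as outliers (129 to 174 per array) were left out; 0 spots were saturated. Log2 intensities minus the array's 75th percentile were averaged per probe. Probes well above background on at least 3 of 4 arrays of a group were kept (24853), and the brightest kept probe stood for its gene. The test of siRNA against NC was limma's lmFit and eBayes, two-sided (limma 3.58.1, R 4.3.3), with Benjamini-Hochberg adjustment over all kept probes, checked on simulated data. Where no array of a group measured a probe, its fold was set from each array's lowest signal well above background. It is a bound only where every array of the other group measured the probe. Probe positions are the array design's on rn4, and exon annotation of that build was not used. Names came from the RefSeq table of GRCr8 through accessions (18028 probes) or symbols, or from the file.

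The members and lists were chosen with earlier results of these data known. Besides the members, the rule named Nr1d1, Rora, Nfil3, Bhlhe40, Tef and Hlf, up to 4 called genes per list with the smallest adjusted p, and the 3 genes most correlated with the called member of smallest adjusted p. Groups came from the transfection label. The labels do not say whether arrays are separate cultures, so p-values cover array-to-array spread alone, possibly technical, and the number of arrays limits the precision. Other background corrections, scalings, filters, probe rules, a replicate block and leaving out each array were tried; fitting without scaling was chosen after seeing the data. Results for some genes of the lists are not reported here.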

Additional observations from a re-analysis of the deposited data

Results flagged for a closer look

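Of 62 groups of 4 arrays looked at among the probes and genes named above, 4 held an array far from its other 3, and chance flags about 1 group in 20. In each the gap to the nearest array was large against the group's whole range (above Dixon's 95% critical value). Per1 on siRNA replicate 4 stood at -2.45 (log2 relative to the 75th percentile), and the nearest siRNA array at -2.74. Arntl on NC replicate 4 stood at 3.39, and the nearest NC array at 3.59. Cry1 on NC replicate 3 stood at 2.06, and the nearest NC array at 1.93. The Per3 probe A_44_P407318 on NC replicate 1 stood at -6.06, and the nearest at -6.52, with 0 of 4 NC arrays well above background. Arntl, Cry1 and Per1 were each called lower with any 1 array left out.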

How the results depend on the processing

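The fit was repeated under 21 other settings, 8 of which left out 1 array. With 1 array left out, 0 clock genes were higher and 8 lower each time, 13 to 14 of the other clock pathway genes were higher and 14 to 17 lower, and 6628 to 7409 probes were higher and 6972 to 7703 lower (7389 and 7938 with all arrays). Per3 was the 1 clock gene called higher after scaling by the median (0.30 on the log2 scale) or spike-ins (0.53). The same held after quantile (0.29) or cyclic loess normalization (0.27). With no filter on dim probes 1 was called higher, Npas2, by its brighter probe A_44_P405793 (0.70, adjusted p = 0.0209 by limma). The other Npas2 probe was then called lower (-1.45, adjusted p = 0.00125 by limma), so no direction is read for Npas2. Lower clock genes numbered 2 with spike-in scaling, 1 with normexp background correction on all spots, and 7 or 8 otherwise. Of the other clock pathway genes median scaling gave 20 higher and 9 lower, spike-in scaling 24 and 6, and normexp 4 and 5. Over all probes, median scaling gave 12991 higher and 4212 lower, spike-in scaling 16249 and 2729, normexp 1972 and 1677, and no scaling 11892 and 4793. With spike-in scaling Nr1d2 turned to 0.080, Bhlhe40 to 0.12 and Csnk1d to 0.13. Relative to the planned scaling the median of all probes moved by 0.31 under median and 0.53 under spike-in scaling, 0.24 without scaling and -0.16 with normexp, whose background estimate was -387 on NC replicate 1 and between -2.12 and 10.3 on the other arrays; with spots dimmer than their local background left out, normexp gave 8 lower clock genes.

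Replicate numbers did not pair the arrays (same-number correlations of deviations from -0.03 to 0.21), and with the replicate block 0 clock genes were higher and 8 lower, 13 and 16 other clock pathway genes, and 7166 and 7819 probes. Under filtering to probes above background on all 8 arrays Clock had no value, so 7 genes were lower. The deposited series table holds none of these genes' probes and was not run. Signals near background limit Clock, Nr1d2 and both dim Per3 probes, and slide and scan cannot be told apart from group.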
